A study of Mus musculus with 4 samples.

Results

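Fatty acid synthesis in the liver was examined through 10 genes that are commonly listed as targets of SREBP-1c and ChREBP, namely *Fasn*, *Acly*, *Acaca*, *Acacb*, *Me1*, *Acss2*, *Thrsp*, *Mlxipl*, *Pnpla3* and *Mid1ip1*. Membership was set by gene symbol. All 10 were among the 35739 genes of the deposited expression table, 9 of them were above 0 and passed the filter of a mean of at least 1 TPM, and *Pnpla3* was listed at 0 in every library. RNA-seq was performed on livers of littermates, WT replicates 2 and 3 (WT2 and WT3) and *Usp21* KO replicates 1 and 3 (KO1 and KO3), with 1 library per mouse. The KO mice lacked exons 3 and 4 of *Usp21*, a ubiquitin-specific protease, in all tissues, and the neo cassette used for targeting had been removed. Both genotypes came from matings that combined B6 mice with mice of mixed background (B6 and the strain of the ES cells), were 10 to 11 weeks old, and were kept on a normal diet with 12 h of light per day. The hour of sacrifice and whether food had been withdrawn are not given in the sources used here. Since the deletion is constitutive, effects that arise in hepatocytes cannot be told apart from effects that reach the liver from other tissues, and in bulk liver RNA fewer cells of a type cannot be told apart from less RNA per cell.

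De novo lipogenesis turns surplus carbohydrate into fatty acids. ATP citrate lyase and acetyl-CoA synthetase supply cytosolic acetyl-CoA, acetyl-CoA carboxylase converts it into malonyl-CoA, and fatty acid synthase extends it to palmitate with NADPH from malic enzyme and other sources. In liver, insulin raises transcription of these enzymes largely through SREBP-1c, which is encoded by *Srebf1*, while glucose metabolites act through ChREBP, which is encoded by *Mlxipl*, and fasting lowers it.

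The promoters of the 3 members whose genotype means differed at least 2-fold are shown, because these genes also had the widest spread between livers. Each is the 250 bases before the RefSeq start in GRCm38.p6, which for *Mid1ip1* and *Thrsp* lies inside the longer gene span of the GENCODE annotation given below, and capitals mark matches to 4 motifs searched on both strands: the E-box CACGTG, the sterol response element core TCACNCCAC, the CCAAT box, and the Sp1 box GGGCGG.
*Fasn*, chr11:120824548-120824797, reverse strand: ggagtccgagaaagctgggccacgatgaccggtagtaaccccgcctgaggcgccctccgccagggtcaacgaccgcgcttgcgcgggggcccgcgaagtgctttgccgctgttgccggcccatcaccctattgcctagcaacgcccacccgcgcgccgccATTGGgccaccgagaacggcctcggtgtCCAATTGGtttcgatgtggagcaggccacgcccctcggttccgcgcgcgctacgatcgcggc
*Thrsp*, chr7:97417551-97417800, reverse strand: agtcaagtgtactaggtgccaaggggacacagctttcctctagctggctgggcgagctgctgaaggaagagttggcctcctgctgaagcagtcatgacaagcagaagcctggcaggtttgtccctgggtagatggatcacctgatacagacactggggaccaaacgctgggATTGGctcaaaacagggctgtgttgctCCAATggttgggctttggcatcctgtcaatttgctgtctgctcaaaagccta
*Mid1ip1*, chrX:10717115-10717364, forward strand: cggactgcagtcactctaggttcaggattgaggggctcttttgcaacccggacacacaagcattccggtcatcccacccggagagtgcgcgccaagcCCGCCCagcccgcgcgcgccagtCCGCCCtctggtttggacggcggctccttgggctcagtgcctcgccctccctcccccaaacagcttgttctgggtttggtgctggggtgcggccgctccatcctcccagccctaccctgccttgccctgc

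The *Fasn* promoter held 3 CCAAT matches, of which the nearest pair overlaps on opposite strands, and the *Thrsp* promoter held 2. The *Mid1ip1* promoter held 2 Sp1 matches and no CCAAT match. Among the 12 RefSeq promoters of the 10 members, 7 held a CCAAT match and 6 an Sp1 match, compared with 33.8% and 32.7% of all 32851 promoters. An E-box was found in 1 of the 12, a *Mlxipl* promoter, and the sterol response element core in 1, another *Mlxipl* promoter, compared with 6.02% and 1.05% of all promoters. These are letter matches in a short window and were not measured as binding sites.

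The summed level of the 9 expressed members was far higher in 1 WT liver than in the other 3. It was 255.4 TPM (the length-corrected abundance unit of the deposited table) in WT2 and 999.5 TPM in WT3, compared with 301.0 TPM in KO1 and 215.7 TPM in KO3. Both KO livers lay far below WT3 and near WT2, with KO1 above it and KO3 below it, although with TMM scaling of the libraries KO1, at 268.9, also fell just below WT2, at 270.1. *Thrsp* made up much of this sum, and without it the sums were 180.4, 388.1, 249.1 and 179.0 TPM in WT2, WT3, KO1 and KO3.

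**Figure D1:**
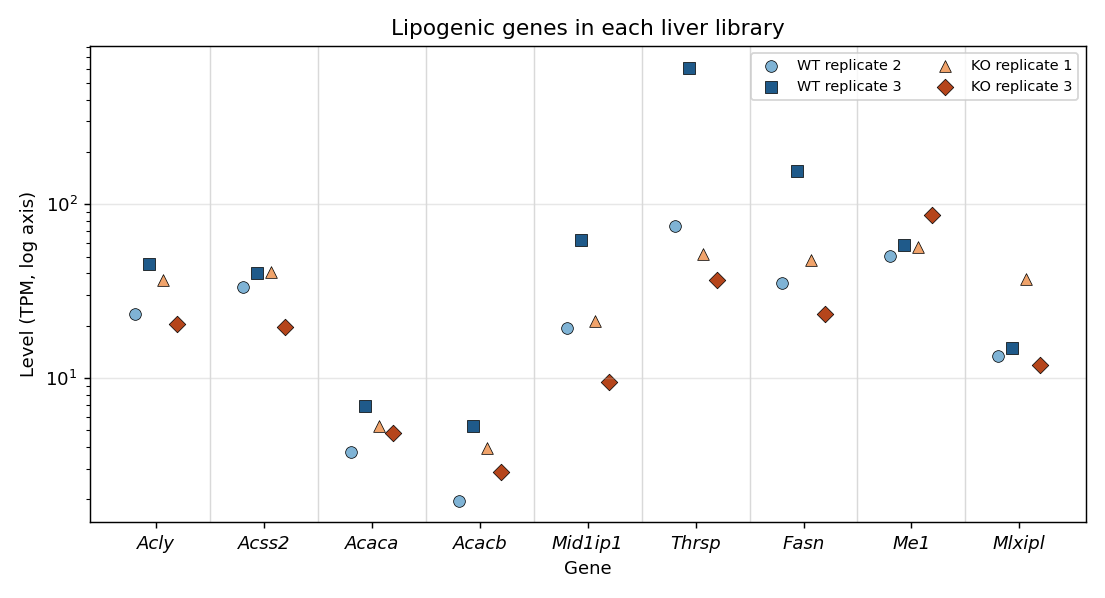
Abundance of the 9 expressed members in each liver, with TPM on a log axis, 1 point per library, WT and *Usp21* KO by colour. WT3 is the highest point for 6 members, and *Thrsp* in WT3, at 611 TPM, stands above every other value.

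Acetyl-CoA supply was examined first. *Acly* (ENSMUSG00000020917, chr11:100476353-100528000, reverse strand, in GRCm38), which encodes ATP citrate lyase, was at 23.3 TPM in WT2, 45.2 TPM in WT3, 36.5 TPM in KO1 and 20.3 TPM in KO3. The genotypes overlapped, since WT3 was the highest and KO3 the lowest, with KO1 above WT2. The mean was 34.2 ± 15.5 TPM in WT and 28.4 ± 11.4 TPM in KO (SD, n = 2 each), and the difference between genotypes on the log2(TPM + 1) scale was -0.24 with a SE of 0.40 (limma, adjusted p = 0.832).

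*Acss2* (ENSMUSG00000027605, chr2:155517948-155585724, forward strand), which encodes the cytosolic enzyme that makes acetyl-CoA from acetate, was at 33.2 TPM in WT2, 40.3 TPM in WT3, 40.8 TPM in KO1 and 19.6 TPM in KO3. KO3 was the lowest, and WT3 and KO1 were nearly level, with KO1 the higher in the TPM as deposited and WT3 the higher under upper quartile and TMM scaling. KO1 was 2.09-fold above KO3, whereas WT3 was 1.21-fold above WT2, and the genotype difference was -0.36 with a SE of 0.36 on the log2(TPM + 1) scale (limma, adjusted p = 0.712). The ratio of *Acly* to *Acss2* TPM was 0.701 in WT2, 1.12 in WT3, 0.893 in KO1 and 1.04 in KO3, so *Acss2* was the more abundant of the pair in one liver of each genotype.

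The carboxylation step showed no difference between genotypes that exceeded its error. *Acaca* (ENSMUSG00000020532, chr11:84129672-84401651, forward strand), which encodes the cytosolic carboxylase that feeds fatty acid synthesis, was at 3.75 TPM in WT2, 6.88 TPM in WT3, 5.26 TPM in KO1 and 4.82 TPM in KO3. The WT livers were the extremes and both KO livers fell between them. KO and WT differed by -0.02 with a SE of 0.31 on the log2(TPM + 1) scale (limma, adjusted p = 0.984).

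*Acacb* (ENSMUSG00000042010, chr5:114146535-114250761, forward strand), which encodes the carboxylase at the mitochondrial surface whose malonyl-CoA restrains fatty acid oxidation, was at 1.97 TPM in WT2, 5.31 TPM in WT3, 3.94 TPM in KO1 and 2.87 TPM in KO3. As for *Acaca*, WT3 was the highest and WT2 the lowest. Between genotypes the difference was 0.01 with a SE of 0.41 on the log2(TPM + 1) scale (limma, adjusted p = 0.990), and its sign turned under both other scalings of the libraries. *Acaca* was the more abundant in every liver, with a ratio of *Acaca* to *Acacb* TPM of 1.90 in WT2, 1.30 in WT3, 1.33 in KO1 and 1.68 in KO3.

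The paralogous pair *Thrsp* and *Mid1ip1* encodes Spot 14 and its relative MIG12, which act together on acetyl-CoA carboxylase, and both varied more than the carboxylases themselves. *Thrsp* (ENSMUSG00000035686, chr7:97412938-97417730, reverse strand) was at 75.0 TPM in WT2, 611 TPM in WT3, 51.9 TPM in KO1 and 36.7 TPM in KO3. In the TPM as deposited it was the only member of the 9 whose genotypes did not overlap, with both KO livers below WT2 and WT3 far above the other 3. WT3 was 8.15-fold above the other WT liver, 11.8-fold above KO1 and 16.7-fold above KO3. The genotype difference was -2.27 with a SE of 0.92 on the log2(TPM + 1) scale, which was not significant (limma, unadjusted p = 0.0517, adjusted p = 0.475), and without WT3 it was -0.77.

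*Mid1ip1* (ENSMUSG00000008035, chrX:10715013-10719690, forward strand) was at 19.4 TPM in WT2, 62.4 TPM in WT3, 21.4 TPM in KO1 and 9.50 TPM in KO3. The genotypes overlapped because KO1 lay just above WT2, an order that turned under upper quartile and TMM scaling, where *Mid1ip1* joined *Thrsp* in having non-overlapping genotypes. WT3 was 3.21-fold above WT2 and KO1 was 2.25-fold above KO3. The genotype difference was -1.23 with a SE of 0.61 on the log2(TPM + 1) scale (limma, adjusted p = 0.511), and without WT3 it was -0.41. The ratio of *Thrsp* to *Mid1ip1* TPM was 3.86 in WT2 and 3.86 in KO3 but 9.80 in WT3 and 2.43 in KO1, so the pair did not change in proportion.

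*Fasn* (ENSMUSG00000025153, chr11:120805846-120824547, reverse strand), which encodes fatty acid synthase, was at 35.2 TPM in WT2, 155 TPM in WT3, 47.8 TPM in KO1 and 23.4 TPM in KO3. WT3 stood apart from the other 3 livers, among which KO1 was above WT2 and KO3 below it. The mean was 95.0 ± 84.6 TPM in WT and 35.6 ± 17.3 TPM in KO (SD, n = 2 each), so that the SD of the WT livers was larger than the difference between the means. The genotype difference was -1.12 with a SE of 0.71 on the log2(TPM + 1) scale (limma, adjusted p = 0.577), and without WT3 it was -0.07. Relative to *Acaca*, whose product it uses, *Fasn* was 9.38-fold more abundant in WT2, 22.5-fold in WT3, 9.08-fold in KO1 and 4.85-fold in KO3 in TPM.

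*Me1* (ENSMUSG00000032418, chr9:86581371-86695953, reverse strand), which encodes the cytosolic malic enzyme that yields NADPH, was at 50.1 TPM in WT2, 58.5 TPM in WT3, 56.4 TPM in KO1 and 86.6 TPM in KO3. It was the only expressed member with its highest value in KO3, the liver in which 6 of the other members were lowest. KO exceeded WT by 0.36 with a SE of 0.25 on the log2(TPM + 1) scale (limma, adjusted p = 0.602). Of the 31-base words in *Me1* transcripts, 36.9% also occur in transcripts of other genes, most of them in *Gm7049*, which holds 28.6% of the words and was listed at 0.159 TPM or less in each library. *Gm48795* holds 22.0%, and no TPM was listed for it. *Gm7329* holds 4.07% and was listed at 52.1, 37.2, 38.7 and 57.5 TPM in WT2, WT3, KO1 and KO3. A division of *Me1* reads with these genes is possible and was not tested. The share was 33.5% for *Acaca* and 22.7% for *Mid1ip1*. *Gm5182*, which shares most of those *Acaca* words, was listed at 0.0361 TPM or less in each library. *Gm14493*, which holds 22.7% of the *Mid1ip1* words, had no listed TPM.

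*Mlxipl* (ENSMUSG00000005373, chr5:135089890-135138382, forward strand), which encodes ChREBP, was highest in another liver than most of its targets. It was at 13.4 TPM in WT2, 14.9 TPM in WT3, 37.1 TPM in KO1 and 11.95 TPM in KO3. KO1 was 3.10-fold above KO3 and also above both WT livers, which differed little from each other. The genotype difference was 0.55 with a SE of 0.50 on the log2(TPM + 1) scale (limma, adjusted p = 0.686), and without KO1 its sign turned to -0.23. *Pnpla3* (ENSMUSG00000041653, chr15:84167837-84187236, forward strand), which encodes a lipid droplet protein with lipase activity and is usually induced on refeeding, was listed at 0 TPM in all 4 livers. Read depth behind the TPM is unknown, so no upper limit on its level can be given.

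None of the 9 tested members passed the adjusted threshold (limma, Benjamini-Hochberg adjusted p under 0.05), compared with 0.0835% of all 9581 tested genes, and 0 had an unadjusted p under 0.05, compared with 10.5% of all tested genes. For the 3 members with reads in the count-based table, edgeR and DESeq2 called 0. *Acaca* had only 1 read there, in WT3, and *Mid1ip1* 1 in WT2 and 1 in KO1, too few for either test to call them. The means of 3 members, *Fasn*, *Thrsp* and *Mid1ip1*, were at least 2-fold lower in KO, compared with 1.10% of all tested genes, and 0 were at least 2-fold higher, compared with 2.59%. Without WT3 no member differed 2-fold. In all, 6 members were lower and 3 higher in KO, or 7 lower with either other scaling of the libraries, under which the median of all tested genes moved from 0.15 to 0.04 or 0.01 on the log2 scale. Non-overlapping genotypes were seen for 1 of 9 members, compared with 45.3% of all tested genes, and for 2 under either other scaling, compared with 43.1% and 43.4%. The members' median difference was -0.24 on the log2(TPM + 1) scale, compared with 0.15 over all tested genes, but it was 0.22 without WT3 and 0.06 without KO3. The difference was smaller than its SE for 3 members, *Acly*, *Acaca* and *Acacb*. With 2 livers per genotype an exact permutation test of a single gene cannot reach a p below 0.333. The p-values of the fitted model rest on these 4 mice and on variances partly shared between genes. For the most variable members this sharing made the SE smaller than their own spread alone would give. *Thrsp*, for example, had a SE of 0.92 and a within-genotype SD of 1.52 on the log2(TPM + 1) scale.

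**Figure D2:**
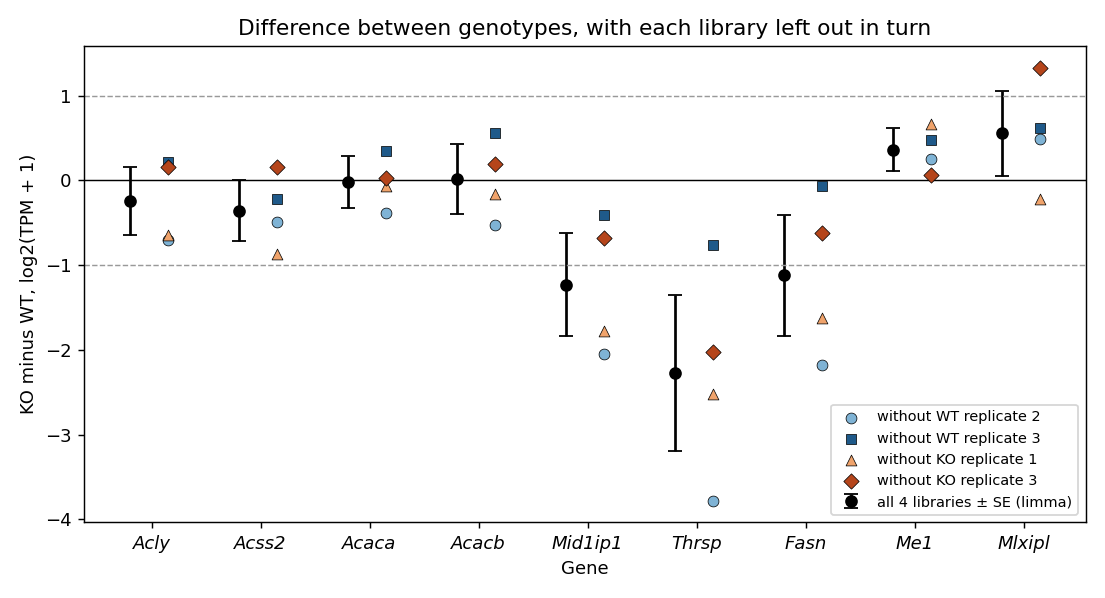
Difference between genotypes for the 9 tested members (KO minus WT, log2(TPM + 1), points with bars of 1 SE from limma), with the values obtained when a single library is left out. *Thrsp*, *Mid1ip1* and *Fasn* lie lowest, at -2.27, -1.23 and -1.12, and move to -0.77, -0.41 and -0.07 without WT3.

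The members varied widely between livers of the same genotype. Their median within-genotype SD was 0.62 on the log2(TPM + 1) scale, compared with 0.23 over all tested genes and 0.22 over the 6181 tested genes within the members' range of mean TPM. All 9 members lay above the median of all tested genes. The SD ran from 0.32 for *Me1* to 1.52 for *Thrsp*, with *Fasn* at 1.17 and *Mid1ip1* at 0.98.

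In the WT livers, 4 of 9 members, *Fasn*, *Acacb*, *Thrsp* and *Mid1ip1*, were at least 2-fold higher in WT3 than in WT2, compared with 3.00% of all tested genes. Ordered by this difference, *Thrsp* was number 16, *Fasn* number 44 and *Mid1ip1* number 77 of the 9581 genes. In the KO livers, 4 of 9 members, *Fasn*, *Acss2*, *Mlxipl* and *Mid1ip1*, were at least 2-fold lower in KO3 than in KO1, compared with 4.38% of all tested genes. The WT count stayed at 4 under upper quartile and TMM scaling, with those genes, whereas the KO count dropped to 1, *Mlxipl*, compared with 3.38% and 3.07% of all tested genes. The gaps between the KO livers in *Fasn*, *Acss2* and *Mid1ip1* were thus close to 2-fold and depended on the scaling.

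**Figure D3:**
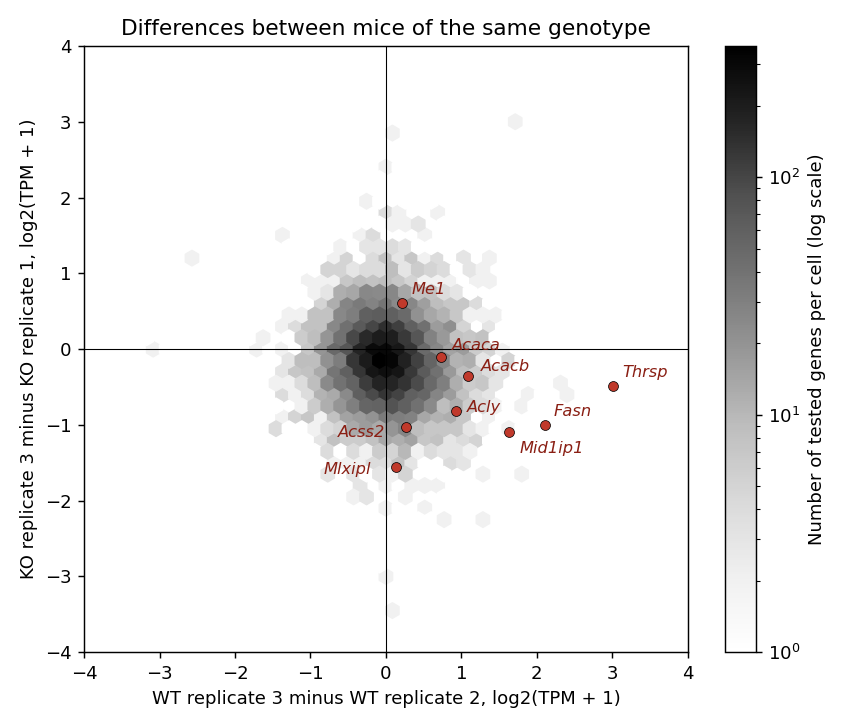
Difference between the WT livers (x axis) and between the KO livers (y axis) in log2(TPM + 1), with the 9 tested members as red points over the density of all tested genes in grey, shaded on a log scale. Axes end at 4 in either direction, which leaves out 34 genes, none of them a member, and the members lie to the right of the vertical line, *Thrsp*, *Fasn* and *Mid1ip1* farthest.

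WT3 was the highest of the 4 livers for 6 of 9 members, compared with 15.2% of all tested genes, and KO3 was the lowest for 6 of 9, compared with 22.9%. Under upper quartile and TMM scaling WT3 was the highest for 7 of 9, with *Acss2* added, compared with 21.2% and 22.7%. KO1 was above WT2 for 8 of 9 members, all except *Thrsp*, compared with 68.4% of all tested genes, and for 6 of 9 under the other scalings, compared with 55.1% and 51.2%. The complete order of WT3, KO1, WT2 and KO3 from high to low was shared by 3 members, *Fasn*, *Acly* and *Mid1ip1*, compared with 3.32% of all tested genes. Under both other scalings *Fasn* and *Acly* kept this order, in which the genotypes alternate, while *Mid1ip1* lost it and *Acss2* took it.

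The genes whose profile was closest to that of *Fasn* were ranked among 4018 other genes that averaged 10 TPM or more, using the root mean square difference of centred log2(TPM + 1) over the 4 libraries. *Mid1ip1* had a distance of 0.18 and 0 of the 4018 genes came closer. *Acly* followed at 0.61 with 19 genes closer and *Thrsp* at 0.68 with 36, while *Mlxipl* at 1.11 and *Me1* at 1.15 had 2926 and 3255 genes closer. The members thus ranged from the nearest profile to one farther than most genes.

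Outside the members, the 4 nearest genes were *Junb*, *Mt1*, *Angptl8* and *Mt2*, at distances of 0.35, 0.38, 0.42 and 0.44. They encode an immediate early transcription factor, a metallothionein, an insulin-induced inhibitor of lipoprotein lipase activity and another metallothionein. *Angptl8* was at 19.1 TPM in WT2, 76.7 TPM in WT3, 50.1 TPM in KO1 and 17.6 TPM in KO3. It was highest in WT3 and had the order of *Fasn*.

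Genes that control SREBP-1c were examined as a list of 12, of which 7 were higher and 5 lower in KO (4 and 8 under either other scaling), 0 passed the adjusted threshold in limma, and 1, *Srebf1*, had an unadjusted p under 0.05, compared with 10.5% of all tested genes. The list median was 0.02 on the log2(TPM + 1) scale. *Srebf1* (chr11:60199089-60222581, reverse strand) was at 58.1 TPM in WT2, 64.3 TPM in WT3, 27.3 TPM in KO1 and 20.7 TPM in KO3. The genotypes did not overlap and the livers of a genotype lay close together, unlike those of most members. Its KO minus WT difference was -1.32 with a SE of 0.20 (limma, unadjusted p = 0.000808, adjusted p = 0.242), and with a single library left out it ran from -1.51 to -1.13.

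The level of the members was not proportional to that of *Srebf1*. The ratio of *Fasn* to *Srebf1* TPM was 0.605 in WT2, 2.41 in WT3, 1.75 in KO1 and 1.13 in KO3, and that of *Thrsp* to *Srebf1* was 1.29, 9.51, 1.90 and 1.77 in the same order. The lowest ratio of both was in WT2 and the highest in WT3, although these livers differed little in *Srebf1*. The ratio of *Mlxipl* to *Srebf1* was 0.231 in WT2 and in WT3, 1.36 in KO1 and 0.576 in KO3, so the transcripts of the 2 factors stood closer together in both KO livers.

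*Insig1* and *Insig2* encode the proteins that retain SREBP in the endoplasmic reticulum, and their extremes lay in the same livers but at opposite ends. *Insig1*, itself an SREBP target, was at 67.1 TPM in WT2, 134.4 TPM in WT3, 67.7 TPM in KO1 and 51.2 TPM in KO3, highest in WT3 and lowest in KO3 like *Fasn*. *Insig2* was at 111.5, 50.2, 108.7 and 150.9 TPM, with its lowest value in WT3 and its highest in KO3. The *Insig2* difference between genotypes was 0.77 with a SE of 0.40 on the log2(TPM + 1) scale (limma, adjusted p = 0.517).

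Of the other SREBP-1c targets, 8 were tested, 4 were higher and 4 lower in KO (3 and 5 with TMM scaling), and the median was 0.05 on the log2(TPM + 1) scale. An unadjusted p under 0.05 (limma) was reached by 0 of them, compared with 10.5% of all tested genes. *Elovl5*, a fatty acid elongase, had the highest difference at 0.90 with a SE of 0.42 (limma, adjusted p = 0.496), and *Slc25a1*, the mitochondrial citrate carrier that supplies *Acly* with substrate, the lowest at -0.37 with a SE of 0.16 (limma, adjusted p = 0.480). *Slc25a1* was at 162.8 TPM in WT2, 167.4 TPM in WT3, 134.7 TPM in KO1 and 120.2 TPM in KO3. Its genotypes did not overlap and its WT livers differed far less than those of *Acly*.

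Of 11 other ChREBP targets, 10 were tested, 3 were higher and 7 lower in KO (2 and 8 under either other scaling), and the median was -0.21 on the log2(TPM + 1) scale. None passed the adjusted threshold in limma, and 1 higher and 4 lower had an unadjusted p under 0.05, compared with 10.5% of all tested genes in either direction. The genotypes of 6 of the 10 did not overlap, compared with 45.3% of all tested genes. The lower ones were *Rgs16*, a regulator of G protein signalling, at -2.29 with a SE of 0.43 (limma, adjusted p = 0.373), *Slc2a2*, the glucose transporter GLUT2, at -1.06 with a SE of 0.33 (limma, adjusted p = 0.464), *Pklr*, liver pyruvate kinase, at -0.74 with a SE of 0.28 (limma, adjusted p = 0.472), and *Tkfc*, triokinase of fructose metabolism, at -0.62 with a SE of 0.24 (limma, adjusted p = 0.472). *Rgs16* was at 19.99 TPM in WT2, 13.5 TPM in WT3, 1.40 TPM in KO1 and 4.34 TPM in KO3. The sign of *Tkfc* turned in the count-based table.

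**Figure D4:**
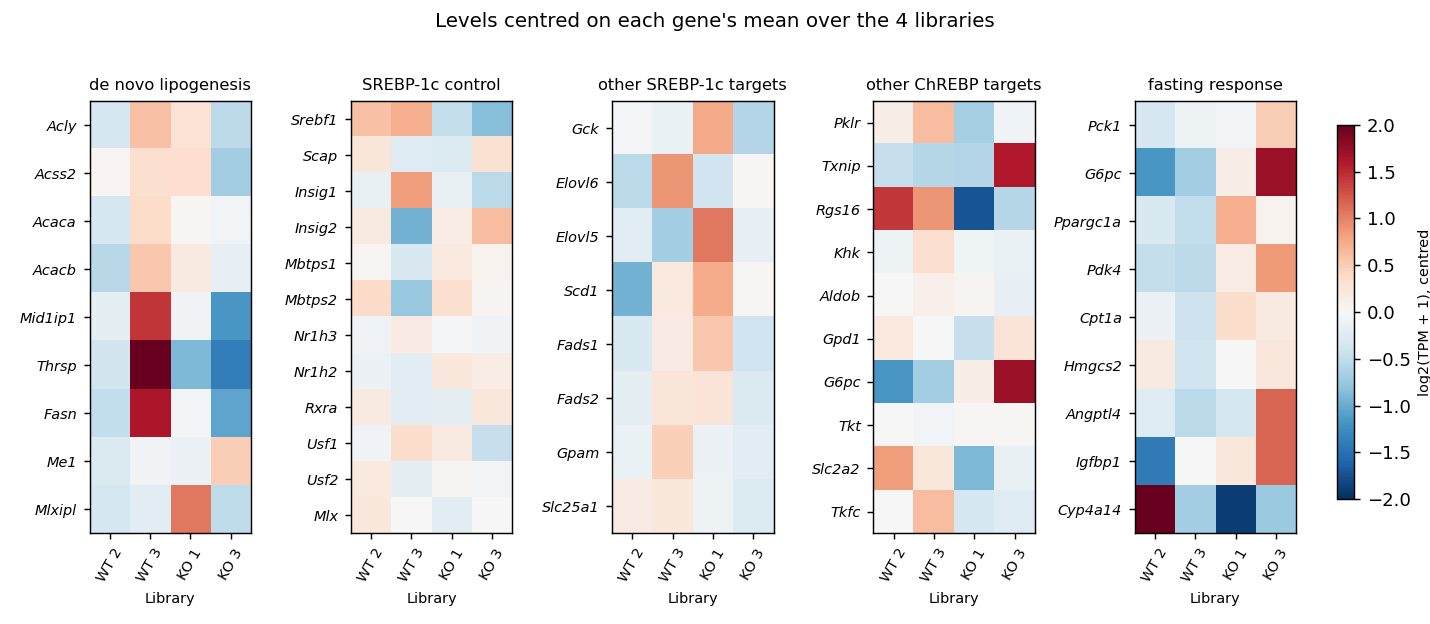
Centred log2(TPM + 1) of the members and of the tested genes in 4 of the pathway lists, with genes as rows, the 4 livers as columns and colour for the difference from the gene's mean over the 4 livers, saturating at 2 in either direction. The rows of *Fasn*, *Thrsp* and *Mid1ip1* are set apart by the WT3 column, whereas the *Srebf1* and *Rgs16* rows split by genotype.

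Other suppliers of NADPH were examined beside *Me1*. Of 6 genes, 5 were tested, with 1 higher and 4 lower in KO (0 and 5 with TMM scaling). An unadjusted p under 0.05 (limma) was reached by 0 of them, compared with 10.5% of all tested genes. The differences lay between -0.37 for *Pgls* and 0.16 for *Mthfd1* on the log2(TPM + 1) scale. For AMPK, the kinase that inhibits both carboxylases, and the enzymes that use malonyl-CoA or are inhibited by it, 8 of 9 genes were tested, with 7 higher and 1 lower in KO, or 4 and 4 under either other scaling. The list median was 0.14 on the log2(TPM + 1) scale, close to the 0.15 of all tested genes. Among these the highest difference was 0.54 with a SE of 0.19 for *Cpt1a*, which encodes the carnitine palmitoyltransferase that malonyl-CoA inhibits (limma, unadjusted p = 0.0316, adjusted p = 0.464). *Cpt1a* was at 39.9 TPM in WT2, 32.4 TPM in WT3, 56.0 TPM in KO1 and 49.6 TPM in KO3, with both KO livers above both WT livers.

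Genes that rise in fasting were examined because lipogenic transcripts move with feeding. Of 10 listed, 9 were tested, and 8 were higher and 1 lower in KO, also under either other scaling. The median was 0.80 on the log2(TPM + 1) scale, compared with 0.15 over all tested genes. It was 0.67 with upper quartile and 0.64 with TMM scaling, compared with 0.04 and 0.01 over all tested genes. The genotypes of 7 of the 9, the lower gene included, did not overlap, compared with 45.3% of all tested genes. However, 0 passed the adjusted threshold in limma and 4 had an unadjusted p under 0.05, compared with 10.5% of all tested genes. These were *G6pc*, the catalytic subunit of glucose-6-phosphatase, which is also a ChREBP target, at 1.85 with a SE of 0.52 (limma, adjusted p = 0.464), *Igfbp1*, a growth factor binding protein that insulin lowers, at 1.39 with a SE of 0.54 (limma, adjusted p = 0.472), *Pdk4*, a kinase that inhibits pyruvate dehydrogenase, at 1.00 with a SE of 0.33 (limma, adjusted p = 0.464), and *Cpt1a*. The exception was *Cyp4a14*, a fatty acid hydroxylase, at -2.63 with a SE of 1.25 (limma, adjusted p = 0.496), which was at 356.2 TPM in WT2 but at 21.6, 8.76 and 20.7 TPM in WT3, KO1 and KO3. *G6pc* was at 22.4 TPM in WT2, 31.6 TPM in WT3, 56.4 TPM in KO1 and 172.8 TPM in KO3, so it was highest in the liver with the lowest *Fasn*. Feeding state was not recorded in the sources used here, and its part in the level of the members was not tested.

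Over all 6 pathway lists, 50 of 53 genes were tested. None passed the adjusted threshold in limma, 4 were higher and 5 lower at an unadjusted p under 0.05, compared with 10.5% of all tested genes in either direction, and 21 of the 50 had non-overlapping genotypes, compared with 45.3% of all tested genes.

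A pair of gene groups that separated the livers in other ways was looked at after their values had been seen. Of 14 clock genes that averaged 1 TPM or more, 9 were lower and 3 higher in both KO livers than in both WT livers (such a split was seen for 45.3% of all tested genes), and *Dbp*, a clock output factor, was at 56.8 TPM in WT2, 41.3 TPM in WT3, 4.73 TPM in KO1 and 4.97 TPM in KO3. That split is by genotype, as for *Srebf1*, and a difference in the hour of sacrifice between genotypes cannot be told apart from genotype here. Of 18 acute phase genes, 11 were highest in WT3 and 7 were at least 2-fold higher in WT3 than in WT2, compared with 15.2% and 3.00% of all tested genes, and *Saa1*, a serum amyloid, was at 47.8 TPM in WT2, 1089 TPM in WT3, 162 TPM in KO1 and 135 TPM in KO3. However, 4 of the 18 were higher and 2 lower in both KO livers than in both WT livers, compared with 45.3% of all tested genes for such a split. The 18 genes summed to 11457.5, 17970.9, 16995.6 and 12778.3 TPM in WT2, WT3, KO1 and KO3, so KO1 came near WT3. WT3 therefore also stood apart in some acute phase transcripts, and their part in its high *Fasn*, *Thrsp* and *Mid1ip1* was not tested.

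*Usp21* itself was at 4.07 TPM in WT2, 6.29 TPM in WT3, 1.64 TPM in KO1 and 2.93 TPM in KO3, a difference of -0.92 with a SE of 0.33 on the log2(TPM + 1) scale (limma, adjusted p = 0.464), and reads of exons outside the deletion count toward it. Hepatocyte markers summed to between 50879 and 74351 TPM in the 4 livers. Adipocytes also express the members, and the 8 adipocyte markers summed to 8.98 TPM in WT2, 13.0 TPM in WT3, 18.2 TPM in KO1 and 13.6 TPM in KO3. Most of that sum was *Fabp4* and *Lipe*, which other cells also express. Of the more specific markers, *Plin1*, *Lep* and *Adig* were listed at 0 in every library and *Adipoq* at 0 in all but KO3, where it was at 0.224 TPM. The summed markers of Kupffer cells ran from 51.6 to 135.0 TPM, of endothelial cells from 32.2 to 50.9 TPM and of blood from 468.4 to 653.0 TPM, with overlapping genotypes. Those of stellate cells were 68.6, 54.5, 101.2 and 76.9 TPM in WT2, WT3, KO1 and KO3. Those of cholangiocytes were 14.6, 15.9, 38.0 and 24.5 TPM in the same order, so both sums were higher in both KO livers. Most of the cholangiocyte sum was *Spp1*, at 13.2, 12.7, 33.4 and 20.7 TPM in that order. *Krt19* was also higher in both KO livers but reached only 1.28 TPM, in KO3. The genotypes overlapped for *Krt7*, *Epcam*, *Sox9* and *Cftr*. None of these sums was highest in WT3, and the part of cell composition in the members was not tested.

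The second deposited table, of counts scaled to library size, held few reads for the members. The recovered reads per library ran from 102898 to 148164, and of 682 genes that reached 100 TPM in all 4 livers, 428 were listed at 0 throughout. Likewise 7 members were at 0 throughout, *Thrsp* and *Fasn* among them, and since genes that are abundant in TPM are also at 0 there, these zeros set no limit on a level. *Acss2* had 7 reads in WT2, 3 in WT3, 5 in KO1 and 9 in KO3, and its genotype difference was 0.44 on the log2(CPM + 1) scale, the opposite sign to that in TPM (limma, adjusted p = 0.735). *Acaca* had 1 read in WT3, and *Mid1ip1* had 1 read in WT2 and 1 in KO1, so no difference in these genes was detectable in the counts.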

How the data were processed

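Liver RNA-seq of 2 WT and 2 *Usp21* KO mice was analysed, and genotype and replicate were taken from the labels. The authors estimated abundance with Salmon and deposited TPM per gene for 35739 genes. The authors also deposited a signal of HTSeq counts scaled with edgeR (CPM) for 55335 genes, of which 50189 were at 0 in all 4 libraries. The build was mm10, per the labels. Versions and strand setting are not given in the sources used here. A further 2 tables of log2 values were not used.

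The 9581 genes that averaged 1 TPM or more were tested on log2(TPM + 1) with limma 3.58.1 in R 4.3.3 (moderated variances, prior degrees of freedom 3.62), two-sided, with Benjamini-Hochberg adjustment over all of them and no covariate. Fold changes on this scale understate those of low genes. Whole reads were recovered from the CPM steps (100% of values within 0.02 reads of a whole number) for edgeR 4.0.16 and DESeq2 1.42.0, which were run on the 5146 genes with reads. The fits were tested on simulated data. Other pseudocounts, filters and scalings, unmoderated variances and leaving out each library were also tried. The order of the libraries and the directions in each list under other scalings were added after the values were seen.

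The members, the gene lists and the tests were chosen with earlier results of these data known, and the clock and acute phase lists after their values were seen. The genes named are all members, *Usp21*, *Srebf1*, in each pathway list the highest and lowest difference and every unadjusted p under 0.05, and the 5 profiles nearest to *Fasn*, of which 1 is not reported here. *Insig1*, *Gm7049*, *Gm48795*, *Gm7329*, *Gm5182*, *Gm14493*, *Dbp*, *Saa1* and the adipocyte and cholangiocyte markers were added after their values were seen. Coordinates and transcripts are from GENCODE M21 (GRCm38) and promoters from RefSeq (GRCm38.p6).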

Additional observations from a re-analysis of the deposited data

How the results depend on the processing

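No paired analysis was possible because the genotypes share only replicate number 3. With 2 livers per genotype, a fit without one of them assumes that the lone library varies like the other genotype. Of the 14 alternatives, none that kept all 4 libraries brought a member or a pathway gene past the adjusted threshold. Of 107 alternative values of single members, 93 kept their direction. A change of filter or of moderation cannot move a difference, so the agreement of those settings was fixed in advance and is no sign of stability. Over all tested genes the median difference was 0.15, and 0.04 with upper quartile and 0.01 with TMM scaling. Leaving out each library gave 0 to 3 members changed at least 2-fold (0 without WT3) and 3 to 7 with non-overlapping genotypes. A lone library need only lie outside the range of the other genotype, so non-overlap is reached more easily. The share of all tested genes was not counted without a library. Neither count can therefore be read against a background or as a rise over the main fit. The members' median ran from -0.65 to 0.22 on the log2 scale, and was 0.22 without WT3 and 0.06 without KO3. An unadjusted p under 0.05 (limma) was found for 1 member with TMM scaling and for 0 with upper quartile scaling. The share of all tested genes under these scalings was not counted, so these numbers cannot be read against a background. Under upper quartile and TMM scaling 2 members had non-overlapping genotypes (*Thrsp* and *Mid1ip1*), compared with 43.1% and 43.4% of all tested genes. Only 3 members have reads in the CPM table, of which 0 were non-overlapping. With limma on CPM, edgeR and DESeq2 alike 1 of the 3 differed at least 2-fold, *Acaca*, which rests on 1 read in WT3. *Acss2* turned to 0.44, 0.41 and 0.47 in these 3 fits, and *Tkfc* to 0.26, 0.11 and 0.14. *Acacb* turned to -0.015 with pseudocount 5, -0.090 with upper quartile and -0.11 with TMM scaling, *Mthfd1* to -0.0028 with TMM scaling and *Prkag2* to 0.0092 with pseudocount 5. With single libraries left out, *Acly* ran from -0.71 to 0.22, *Acaca* from -0.38 to 0.35, *Acacb* from -0.53 to 0.56, *Acss2* from -0.87 to 0.15, *Mlxipl* from -0.23 to 1.33, *Mthfd1* from -0.17 to 0.50 and *Prkag2* from -0.44 to 0.43. Where a value turned, the cause was not tested.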
